A study of Mus musculus with 7 samples.

Results

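The genes that turn arachidonic acid into leukotrienes and prostanoids were examined in lipid-laden microglia of young and old mice after stroke. The set holds 10 genes, listed by symbol and matched by the symbol in the gene identifier, of 50686 genes in each file. All 10 passed the filter on low counts and were among the 17559 genes tested. Microglia were isolated by flow cytometry, with CD11b and CD45 as surface markers, from the brains of C57BL/6 male mice 4 days after a 45-min intraluminal occlusion of the middle cerebral artery and reperfusion. The young group comprised 4 mice of 3 to 4 months (14C, 18C, 23C and 29C), and the old group 3 mice of 21 to 22 months (2posI, 3posI and 4posI). Every mouse of both ages was subjected to ischemia, and none is described as receiving the microglia-depleting drug used elsewhere in the study. Only cells positive for Bodipy, a dye for neutral lipids that marks lipid droplets, entered the libraries. Neither Bodipy-negative cells nor brains without ischemia are therefore represented. Low-input polyadenylated RNA was amplified by the Smart-seq2 method without strand information. Each library carries its own animal code, a number with C in young and a number with posI in old mice. The labels state no batch, and whether these naming series mark different batches cannot be told apart from age.

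Eicosanoid synthesis starts when cytosolic phospholipase A2 (Pla2g4a) frees arachidonic acid from membrane phospholipids. In the leukotriene branch, 5-lipoxygenase (Alox5), aided by its activating protein (Alox5ap), makes leukotriene A4, which Lta4h converts to the neutrophil attractant leukotriene B4 and Ltc4s conjugates with glutathione to give leukotriene C4. In the prostanoid branch, the cyclooxygenases Ptgs1 and Ptgs2 make prostaglandin H2, the shared substrate of the prostaglandin E2 synthase Ptges, the prostaglandin D2 synthase Hpgds and the thromboxane synthase Tbxas1. Resting microglia are known for Ptgs1 and Hpgds, whereas Ptgs2 is an inducible gene of activated cells.

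None of the 10 genes passed the test between ages. edgeR's quasi-likelihood test, with p-values adjusted over all genes tested, called 0 of 10, where 0.803% of all genes were called (141 of 17559). limma-voom and DESeq2 also called 0 of the 10. At an unadjusted p under 0.05, edgeR picked 1 of 10, Alox5ap, against 18.9% of all genes. The smallest unadjusted p-values belonged to Alox5ap (0.0143, edgeR), higher in old mice, and to Tbxas1 (0.0683) and Ptgs2 (0.0915), lower in old mice. Ages did not overlap in 2 of the 10 genes, Alox5ap and Tbxas1, in CPM, the counts of a gene relative to the library total, scaled by trimmed-mean (TMM) factors, against 17.7% of all genes. Leaving out young mouse 23C raised the number without overlap to 6 of 10 (25.4% of all genes), and leaving out old mouse 3posI raised it to 4 of 10 (28.6%). The median log2 fold change of the members, old against young, was -0.19, and that of all genes tested was -0.01.

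Libraries held 36574083 to 53002386 expected counts, and the members 32 to 23771 counts in a library. No molecular identifiers are described, so copies made by PCR count as reads. Markers of the labelled cell type were abundant in every library. Summed over 12 microglial markers, CPM ranged from 23323 to 35560 in young mice, and reached 28127 in 2posI, 25868 in 4posI and 12172 in 3posI. Old mouse 3posI had the lowest value of 11 of the 12 markers, and young mouse 23C the lowest of the young, with P2ry12 at 441 CPM. The 9 monocyte markers summed to 189 to 498 CPM in young mice, 486 in 2posI, 240 in 4posI and 3037 in 3posI, which had the highest value of all 9. The 10 markers of border macrophages also summed highest in 3posI (1644 CPM, against 192 to 665 in the other 6 libraries). In bulk RNA, fewer cells of a type and less RNA per cell cannot be told apart, and the part of these cells in the values of the members was not tested.

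**Figure D1:**
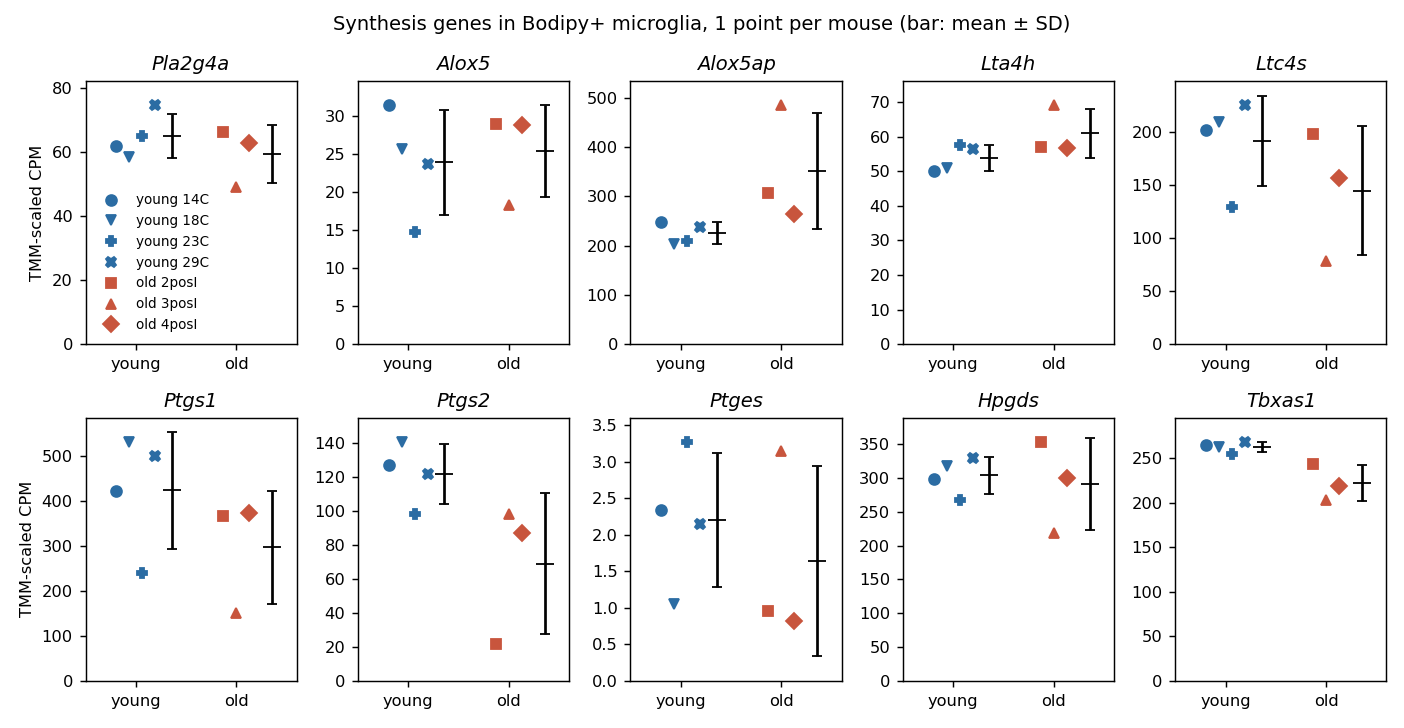
TMM-scaled CPM of each of the 10 synthesis genes (vertical axes, from 0) in 4 young and 3 old mice, 1 symbol per mouse, with mean ± SD beside each group. All 3 old mice lie above the young mice for Alox5ap and below them for Tbxas1, and in the other 8 panels the ages overlap.

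Promoter sequences are shown for Ptgs1 and Ltc4s, whose levels were lowest in 3posI and 23C, and for Ptgs2, the member above 10 CPM that varied most. Alox5 and Hpgds, whose sequences are not shown, were also lowest in 3posI and 23C. Up to 250 bases before the RefSeq gene start (GRCm38.p6) are given 5′ to 3′ in the direction of the gene, from a table that held a window for 9 of the 10 members. They lie at chr2:36230176-36230425 (plus strand), chr11:50238617-50238782 (minus) and chr1:150099781-150100030 (plus). For Ltc4s the 84 bases nearest to the RefSeq start lie inside the longer GENCODE gene and were left out. Capitals mark AGGAAGT, the letters at the heart of binding sites for ETS factors such as PU.1, a regulator of the microglial lineage, and in Ptgs2 the palindrome TTGCGCAA, a C/EBP-type site.
Ptgs1: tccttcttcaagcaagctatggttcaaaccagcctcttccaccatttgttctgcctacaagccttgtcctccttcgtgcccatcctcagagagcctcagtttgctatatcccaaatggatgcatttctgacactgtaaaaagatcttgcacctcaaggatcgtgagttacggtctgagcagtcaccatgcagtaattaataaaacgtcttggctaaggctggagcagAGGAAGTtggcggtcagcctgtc
Ltc4s: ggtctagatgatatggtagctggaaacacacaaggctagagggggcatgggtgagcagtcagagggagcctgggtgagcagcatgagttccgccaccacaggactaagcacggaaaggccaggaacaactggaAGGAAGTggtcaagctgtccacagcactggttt
Ptgs2: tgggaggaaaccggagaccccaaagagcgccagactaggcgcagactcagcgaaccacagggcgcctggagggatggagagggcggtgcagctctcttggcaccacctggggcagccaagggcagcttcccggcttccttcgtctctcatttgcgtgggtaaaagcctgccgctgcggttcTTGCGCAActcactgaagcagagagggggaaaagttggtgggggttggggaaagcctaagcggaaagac
The motifs were picked after the sequences were seen, and both strands were searched in the whole windows. AGGAAGT occurred in 4 of the 10 windows of the members (Ptgs1, Ltc4s, Hpgds and 1 of the 2 RefSeq starts of Pla2g4a) and in 7.69% of all 32851 windows of this length. The window of Alox5 did not hold it, and a link between these letters and the levels was not tested. In Ptgs1 the letters ended 17 bases before the RefSeq start and in Ltc4s 111 bases before it. In Hpgds and Pla2g4a they lay before the RefSeq start but inside the GENCODE gene, whose start is further upstream. TTGCGCAA occurred in Ptgs2 alone among the members, ending 62 bases before the start, and in 0.164% of all windows. These are matches of letters, and binding was not measured.

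Pla2g4a, the phospholipase at the head of the pathway (chr1:149829618-149961290, minus strand, GENCODE vM21 on GRCm38), showed similar levels in most mice. Its CPM was 61.7, 58.4, 64.8 and 74.6 in young mice 14C, 18C, 23C and 29C, and 66.1, 48.9 and 62.8 in old mice 2posI, 3posI and 4posI. Only 3posI fell outside the range of the young mice. Old mice differed from young mice by a log2 fold change of -0.13 ± 0.14 (SE; 95% interval, not adjusted for the number of genes, -0.46 to 0.20; edgeR adjusted p = 0.658).

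Alox5ap, the membrane protein that presents arachidonic acid to 5-lipoxygenase (chr5:149264767-149288153, plus strand), had the largest positive difference of the set. It measured 249, 204, 209 and 238 CPM in the young mice in the same order, and 306, 485 and 263 CPM in the old mice. All 3 old values exceeded all 4 young values, and 3posI stood well above the other old mice. The mean was 225 ± 22.1 CPM (SD, n = 4) in young and 351 ± 118 CPM (SD, n = 3) in old mice, a 1.56-fold difference. In edgeR the log2 fold change reached 0.64 ± 0.21 (SE), with an interval of 0.16 to 1.12, an unadjusted p of 0.0143 and an adjusted p of 0.164 (edgeR), 0.180 (limma-voom) and 0.0566 (DESeq2). Without 3posI, which had the highest monocyte markers, it was 0.34 (adjusted p = 0.273, edgeR), and the ages still did not overlap.

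Alox5, the enzyme that Alox5ap serves (chr6:116410077-116461178, minus strand), did not share this pattern. Its CPM was 31.4, 25.7, 14.8 and 23.7 in young mice and 29.0, 18.4 and 28.8 in old mice. The lowest values were those of 23C and 3posI, the libraries with the lowest sums of microglial markers among young and old mice. Its estimated log2 fold change, 0.09 ± 0.26 (SE), had an interval of -0.51 to 0.69 and an edgeR adjusted p of 0.886, and it turned to -0.09 without 23C. The ratio of Alox5ap to Alox5 in TPM, a unit relative to the library that corrects for gene length, was 31.5 to 57.6 in young mice, 40.5 in 2posI, 110 in 3posI and 36.1 in 4posI.

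The enzymes that use leukotriene A4 differed in how they varied between mice. Lta4h (chr10:93453411-93484875, plus strand) varied little between mice, at 50.1, 51.0, 57.6 and 56.4 CPM in young and 56.9, 69.2 and 56.8 CPM in old mice. The highest value was again that of 3posI, and the others overlapped. For Lta4h the log2 fold change stood at 0.18 ± 0.12 (SE), with an interval of -0.09 to 0.45 (edgeR adjusted p = 0.445).

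Ltc4s (chr11:50236461-50238616, minus strand) measured 201, 210, 129 and 225 CPM in young mice and 198, 78.5 and 157 CPM in old mice. Young mouse 23C and old mouse 3posI were the lowest, and the other 5 mice lay between 157 and 225 CPM. Over all mice this gave a log2 fold change of -0.41 ± 0.31 (SE), with an interval of -1.11 to 0.30 (edgeR adjusted p = 0.508), and of -0.11 without 3posI. The TPM ratio of Ltc4s to Lta4h was 6.90 to 12.5 in young mice, 11.0 in 2posI, 8.24 in 4posI and 3.33 in 3posI, so Ltc4s exceeded Lta4h in every library. Ltc4s shares 268 exonic bases with the antisense gene Gm26542, and without strand information reads from this stretch cannot be told apart. Gm26542 was credited with 1.50% to 2.75% of the counts of Ltc4s in any library. That figure rests on the estimate that splits such reads, so it cannot show how many came from Gm26542. Alox5ap, Ptgs1 and Tbxas1 also share exonic bases with a gene on the opposite strand (189, 148 and 144 bases).

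Ptgs1, the constitutive cyclooxygenase (chr2:36230426-36252272, plus strand), had the highest mean CPM of the set in young mice, at 424 ± 130 (SD, n = 4), against 297 ± 126 (SD, n = 3) in old mice. It measured 422, 532, 241 and 500 CPM in young mice and 366, 152 and 373 CPM in old mice. As for Ltc4s, the lowest mice were 3posI and 23C. For Ptgs1 edgeR gave a log2 fold change of -0.51 ± 0.36 (SE), with an interval of -1.34 to 0.31 (adjusted p = 0.472), and of -0.20 without 3posI.

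Among 8145 other genes with a mean of at least 10 CPM, the nearest in log2 CPM centred on each gene's mean over the 7 libraries were P2ry13, Slco2b1 and Gpr155, with root mean square differences of 0.11, 0.11 and 0.12 against a median of 0.64 over all these genes. P2ry13, a purinergic receptor and 1 of the 12 microglial markers, measured 434, 629, 244 and 469 CPM in young mice and 425, 157 and 398 CPM in old mice. Slco2b1, an organic anion transporter, and Gpr155, a cholesterol-sensing membrane protein, were likewise lowest in 3posI and 23C. Ltc4s ranked 22nd in nearness to Ptgs1 (0.17), the closest of the members, and the next was Hpgds (0.42). These are distances over 7 libraries that differ in depth and marker levels, given as a description.

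Set against the summed microglial markers of the same library, a scale chosen after the values were seen, Ptgs1 amounted to 1.49%, 1.50%, 1.03% and 1.56% in young mice and 1.30%, 1.25% and 1.44% in old mice. Ltc4s amounted to 0.554% to 0.711% at the young age and 0.606% to 0.704% at the old age. On this scale 3posI lay within the range of the young mice for these 2 genes and above it for the other 8. Ptgs2 in 3posI, for example, amounted to 0.808%, against 0.380% to 0.448% in young mice. Ptgs1 had already been found close in pattern to P2ry13, a gene within the marker sum, and Ltc4s close to Ptgs1. Their place within the young range was therefore partly set in advance. The ages did not overlap for Alox5ap and Hpgds, both higher in old mice on this scale. The share of all genes without overlap on it was not computed. The divisor was lowest in 3posI, 12172 CPM against 23323 to 35560 in young mice, so a gene steady in CPM rises there. By CPM the ages overlapped for Hpgds, and 3posI was lowest, at 219. Alox5ap amounted to 0.573% to 0.895% in young mice and 1.09%, 3.98% and 1.02% in old mice, and Hpgds to 0.895% to 1.15% in young mice and 1.26%, 1.80% and 1.16% in old mice. Tbxas1, which was lower in all old mice by CPM, overlapped here, at 0.737% to 1.09% in young mice and 0.865%, 1.67% and 0.848% in old mice.

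**Figure D2:**
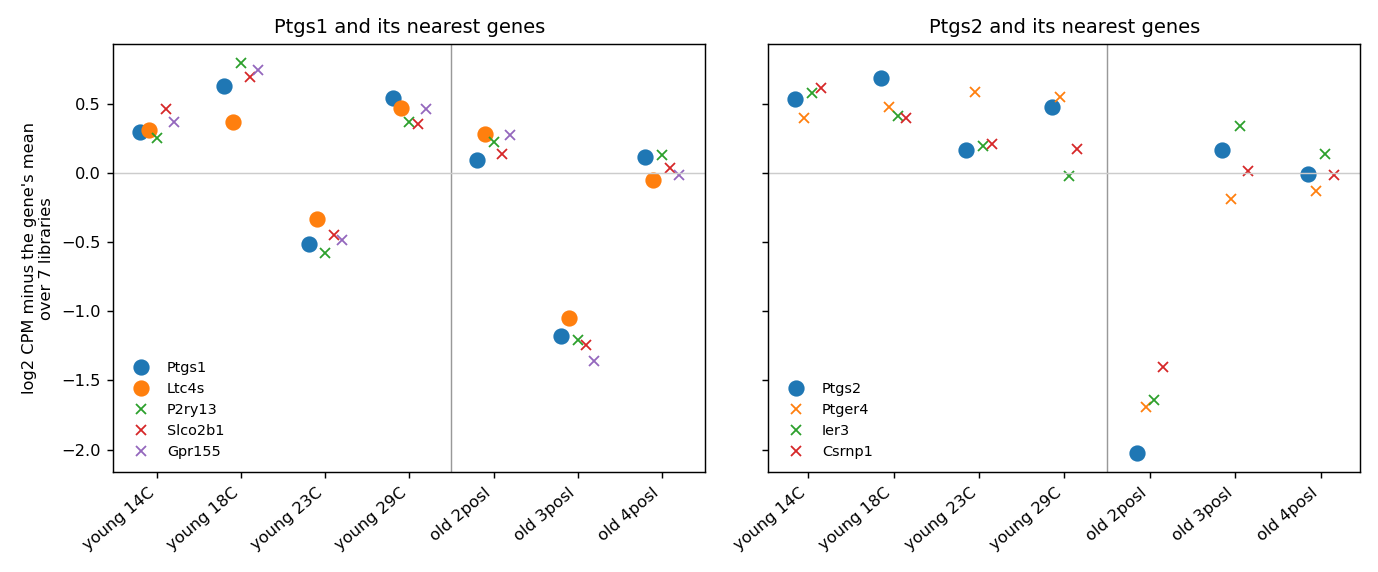
Log2 CPM minus the gene's own mean over 7 libraries (vertical axes) for Ptgs1 with Ltc4s and its 3 nearest genes (left) and for Ptgs2 with its 3 nearest genes (right), 1 mark per gene and mouse, with members as filled circles. On the left all 5 genes are lowest in old mouse 3posI and next lowest in young mouse 23C, and on the right all 4 genes are lowest in old mouse 2posI.

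Ptgs2, the inducible cyclooxygenase (chr1:150100031-150108227, plus strand), varied most of all members with a mean of at least 10 CPM. Its CPM was 127, 141, 98.10 and 122 in young mice and 21.5, 98.39 and 86.9 in old mice. Old mouse 2posI stood far below the rest. Old mouse 4posI also lay below all young mice, and 3posI lay above the lowest young value by less than 1 CPM. In TPM, where young mice measured 35.4 to 50.6 and old mice 6.63 to 30.6, the ages did not overlap. The mean was 122 ± 17.8 CPM (SD, n = 4) in young and 68.9 ± 41.5 CPM (SD, n = 3) in old mice. On the log2 scale old mice differed by -0.82 ± 0.43 (SE), with an interval of -1.81 to 0.16 (edgeR adjusted p = 0.342). This difference shrank to -0.40 once 2posI was left out (adjusted p = 0.334) and widened to -1.17 once 3posI was (adjusted p = 0.245).

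The genes nearest to Ptgs2 in pattern were Ptger4, Ier3 and Csrnp1, at root mean square differences of 0.27, 0.27 and 0.29 against a median of 0.90. Ptger4, which encodes the EP4 receptor of prostaglandin E2, measured 43.5, 45.9, 49.7 and 48.3 CPM in young mice and 10.2, 28.9 and 30.1 CPM in old mice. Its ages did not overlap, and 2posI was lowest. Ier3 and Csrnp1 belong to the immediate early genes, which cells switch on within minutes of a stimulus. Ier3 measured 263 to 398 CPM in young mice, 85.6 in 2posI, 337 in 3posI and 293 in 4posI. Csrnp1 measured 196 to 266 CPM in young mice, 66.0 in 2posI, 176 in 3posI and 173 in 4posI.

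Ptgs1 and Ptgs2 did not move together. Ptgs1 ranked 6038th of 8145 genes in nearness to Ptgs2. In TPM, Ptgs1 exceeded Ptgs2 in every library, by 4.01 to 7.42 times in young mice, 26.2 times in 2posI, 2.48 times in 3posI and 7.62 times in 4posI. The extremes were both old mice, one low in Ptgs2 and the other low in Ptgs1.

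Ptges, the inducible prostaglandin E2 synthase (chr2:30889471-30929863, minus strand), had the fewest counts of the set, with 32 to 167 in a library. It measured 2.34, 1.05, 3.28 and 2.15 CPM in young mice and 0.95, 3.14 and 0.82 CPM in old mice. Old mice 2posI and 4posI were below all young mice, and 3posI was next to the highest. Its log2 fold change had a wide interval, at -0.43 ± 0.56 (SE; -1.70 to 0.85; edgeR adjusted p = 0.719), and moved to -1.31 with 3posI left out (adjusted p = 0.222).

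Hpgds, the hematopoietic prostaglandin D2 synthase (chr6:65117293-65144908, minus strand), measured 299, 318, 268 and 330 CPM in young mice and 354, 219 and 300 CPM in old mice. The old mice held both the highest value, in 2posI, and the lowest, in 3posI. The ages differed by -0.06 ± 0.18 (SE) on the log2 scale, with an interval of -0.47 to 0.34 (edgeR adjusted p = 0.874), and by 0.11 without 3posI.

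Tbxas1, thromboxane A synthase (chr6:38875404-39084585, plus strand), showed the tightest young group of the set. Its CPM was 265, 262, 255 and 269 in young mice and 243, 204 and 219 in old mice. All 3 old mice lay below the young mice. The mean was 263 ± 5.83 CPM (SD, n = 4) in young and 222 ± 20.0 CPM (SD, n = 3) in old mice. The difference was small, at a log2 fold change of -0.24 ± 0.12 (SE), with an interval of -0.51 to 0.02 (edgeR adjusted p = 0.304), and -0.18 without 3posI. Platelets are a rich source of Tbxas1, and 7 of 9 platelet markers stayed under 1 CPM in every library, with a sum of 4.00 to 11.7 CPM over the 9. Mast cells and basophils, a source of Hpgds and Ltc4s, were marked by 11 genes that summed to 1.77 to 14.0 CPM. Of these, 7, including Tpsab1, Ms4a2 and Mcpt8, were at 0 in at least 5 libraries. Young mouse 14C held the highest values of Tpsb2 (1.04 CPM), Cpa3 (0.714), Cma1 (0.671) and Mcpt4 (0.390), named after their values were seen. Tpsb2 and Mcpt4 were at 0 in the other 6 libraries.

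**Figure D3:**
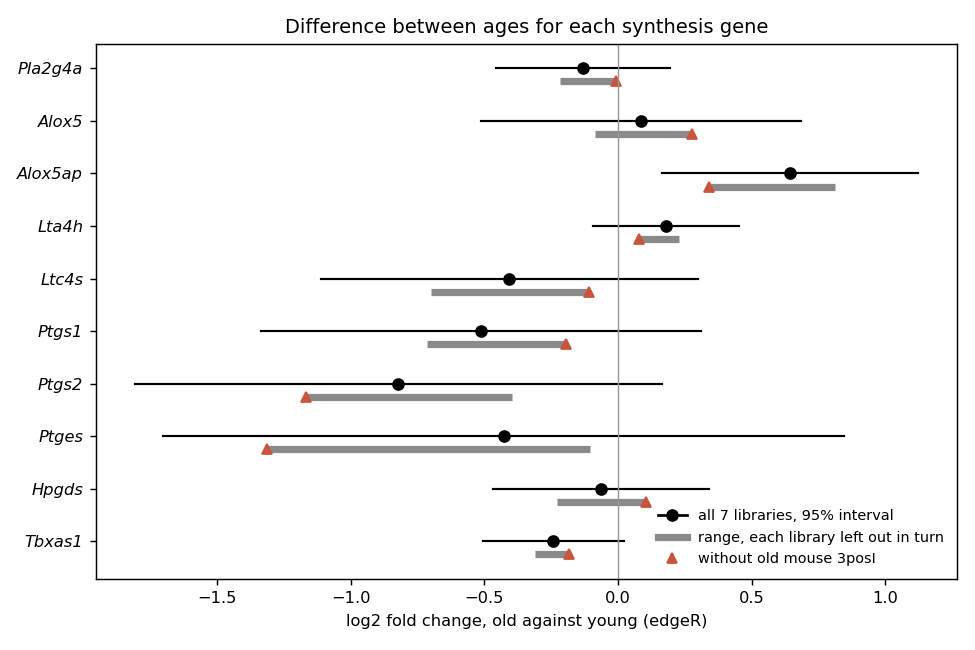
Log2 fold change of each synthesis gene, old against young (horizontal axis, edgeR), as black points with 95% intervals, grey bars for the range when each library is left out in turn, and triangles for the value without old mouse 3posI. Only the interval of Alox5ap (0.16 to 1.12) excludes 0, and the triangles mark an end of the grey bar for each gene.

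Per unit of length, the set spanned from Alox5ap to Ptges. Mean TPM over the 7 libraries was 554 for Alox5ap (rank 212 among the genes tested), 392 for Ltc4s, 266 for Hpgds, 209 for Ptgs1 and 181 for Tbxas1. A second tier held Lta4h (42.6 TPM), Pla2g4a (38.1) and Ptgs2 (33.1), followed by Alox5 (12.2) and Ptges (1.79). Tbxas1 exceeded Lta4h, and Alox5 exceeded Ptges, in all 7 libraries. Other neighbours in the order changed places between mice. Alox5ap exceeded Ltc4s in 5 of 7 libraries, among them all 3 old mice, and Ptgs1 exceeded Tbxas1 in 5 of 7. Lta4h exceeded Pla2g4a in 4 of 7, and Pla2g4a exceeded Ptgs2 in 4 of 7.

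The TPM ratio of Alox5ap to Ltc4s was 1.09, 0.820, 1.41 and 0.928 in young mice and 1.32, 5.64 and 1.51 in old mice. Only 3posI stood clear of the rest. In TPM, ages did not overlap in 4 of the 10 members, against 17.5% of all genes. These were Alox5ap, higher in old mice, and Tbxas1, Ptgs2 and Pla2g4a, lower in old mice. TPM is scaled within each library without TMM factors, and by CPM the ages overlapped for Ptgs2 and Pla2g4a.

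**Figure D4:**
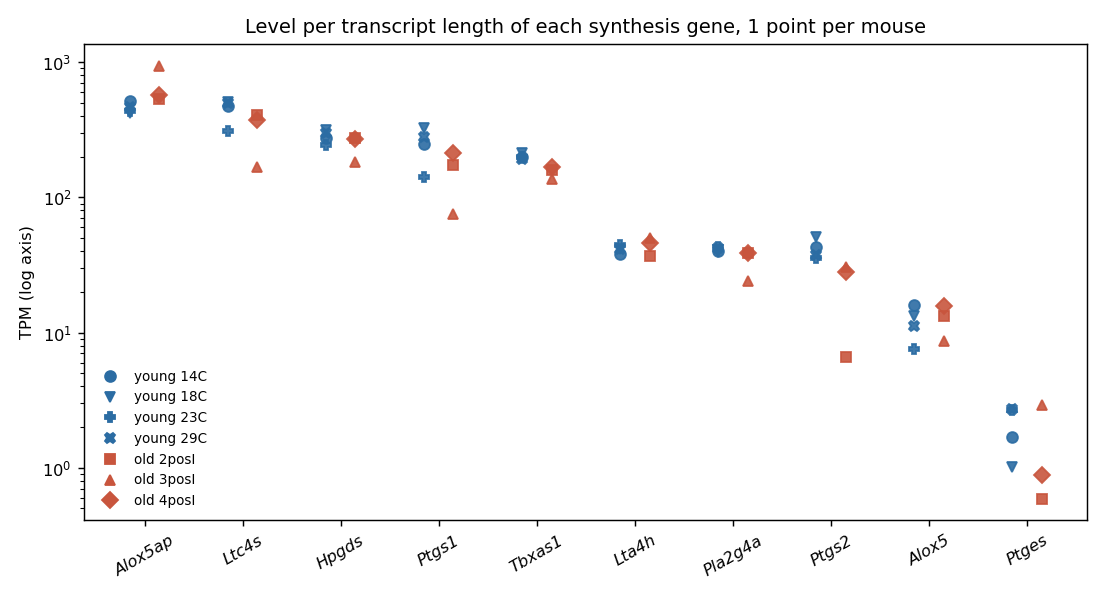
TPM of each synthesis gene (vertical log axis), in order of the mean over 7 libraries, with young mice at the left and old mice at the right of each gene. Means run from 554 TPM for Alox5ap to 1.79 TPM for Ptges, and Tbxas1 lies above Lta4h in every mouse.

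The members Hpgds, Tbxas1 and Ptges were set beside the 7 other prostanoid synthases and reductases listed (Ptges2, Ptges3, Ptgds, Ptgis, Fam213b, Akr1b3 and Cbr1) as shares of their summed TPM. Hpgds took 27.8% to 35.1% in young mice and 25.9% to 32.5% in old mice, the largest share in every library. Tbxas1 took 21.9% to 23.8% in young mice and 18.9% to 19.9% in old mice. Akr1b3, an aldo-keto reductase with prostaglandin F synthase activity, took 18.3% to 26.1% in young mice and 22.2% to 24.5% in old mice. Its share exceeded that of Tbxas1 in all 3 old mice and in young mice 23C and 29C. Ptges took at most 0.413%. Fam213b, a prostaglandin F synthase, took 5.05% to 6.04% in young mice and 9.65%, 10.5% and 6.34% in 2posI, 3posI and 4posI. A larger share of 1 enzyme lowers those of the others, so these shares are not independent.

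The files also hold a gene length for each library, averaged over transcripts by their abundance, which can move when the mix of transcripts changes. This measure was looked at after the values were seen. It varied for all 10 members, and its ages did not overlap in 4 of 10 (Ptgs1, Tbxas1, Ltc4s and Alox5), against 19.3% of the 11768 tested genes whose length varied. For Ptgs1, with 5 annotated transcripts, it was 2423, 2382, 2449 and 2404 bases in young mice and 2633, 2584 and 2530 bases in old mice. For Alox5 it was 2789 to 2834 bases in young mice and 2663 to 2762 in old mice. For Tbxas1 the young group spanned 1826 to 1901 bases and the old group 1905 to 1950, and for Ltc4s 638 to 643.0 against 643.4 to 645. With effective length as offset, the edgeR log2 fold change of Ptgs1 moved from -0.51 to -0.62 and that of Tbxas1 from -0.24 to -0.29. By limma on log2(TPM + 0.1) these were lower still, at -0.75 and -0.38. Every member's value was lower on that scale than in edgeR, including Pla2g4a (-0.13 to -0.32) and Hpgds (-0.06 to -0.24), whose lengths overlapped. How much of the shift in TPM comes from length was not tested.

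Beyond the 10 members, 66 genes of the wider pathway were listed by role, of which 53 were tested. edgeR called 0 of the 53 and limma-voom 0. DESeq2 called 6 of the 44 for which it gave an adjusted p (Lpcat3, Dagla, Ptger4, Pla2g6, Ltb4r1 and Fpr2, named after their calls were seen), where it called 9.07% of all genes. Of these, Ltb4r1, a leukotriene B4 receptor, measured 0.179 to 0.844 CPM in young mice and 0.387, 8.995 and 0.928 CPM in old mice, and its edgeR log2 difference of 2.61 shrank to 0.23 without 3posI. That of Fpr2, a formyl peptide receptor, shrank from 2.97 to 1.23. At an unadjusted p under 0.05 edgeR picked 13 of the 53, of which 6 were higher and 7 lower in old mice, where 18.9% of all genes had such a p. The median log2 fold change was 0.03, with 29 positive and 24 negative. By CPM, ages did not overlap for 2 genes higher and 5 lower in old mice, of the 53, against 17.7% of all genes.

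Of 23 genes listed under the supply or re-esterification of arachidonate, 17 were tested. By edgeR, 6 had an unadjusted p under 0.05, against 18.9% of all genes, and 4 of the 6 were lower in old mice. Of the 2 that were higher, 1 was Anxa1, which itself neither supplies nor re-esterifies arachidonate (named after its values were seen). Pla2g6, the calcium-independent phospholipase A2, spanned 9.83 to 11.1 CPM at the young age and 5.24 to 7.04 CPM at the old age (log2 difference -0.70 ± 0.17 SE, edgeR adjusted p = 0.0964). Lpcat3, which loads arachidonate into phospholipids, spanned 145 to 174 CPM in the young group and 103 to 128 CPM in the old group (log2 difference -0.45 ± 0.12 SE, edgeR adjusted p = 0.121). For both genes the ages did not overlap. By level the list was led by Abhd12, a lipid hydrolase (540 to 952 TPM), and the lysosomal phospholipase Pla2g15 (119 to 230 TPM), whose ages overlapped.

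Of 10 other lipoxygenases and relatives of Alox5ap and Ltc4s, 7 were tested and 0 had an unadjusted p under 0.05 by edgeR. Cotl1, a partner protein of 5-lipoxygenase, was the most abundant, at 539, 627, 1807 and 494 CPM in young mice and 826, 1242 and 756 CPM in old mice. Young mouse 23C, the lowest in Alox5, was the highest in Cotl1. Mgst1, a glutathione transferase of the same family as Ltc4s, was at 2.37 to 21.0 CPM in young mice, and at 23.2, 86.1 and 6.78 CPM in old mice. Alox15, the 12/15-lipoxygenase of mice, stayed at or below 1.46 CPM.

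Of the 7 other prostanoid synthases and reductases, all were tested, and 1, Fam213b, had an unadjusted p under 0.05. It measured 26.0 to 33.5 CPM in young mice and 55.2, 48.4 and 31.0 CPM in old mice, so 4posI overlapped with young mice (log2 difference 0.63 ± 0.20 SE, edgeR adjusted p = 0.158). Akr1b3 (163 to 230 TPM) and Ptges3, a co-chaperone with prostaglandin E2 synthase activity (80.2 to 101 TPM), had the highest levels of this list. Cbr1, which reduces prostaglandin E2 to F2α, differed by 0.18 ± 0.13 (SE) on the log2 scale (edgeR adjusted p = 0.464).

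Of 11 genes of export and breakdown, 10 were tested and 1 had an unadjusted p under 0.05. Dpep2, a dipeptidase that converts leukotriene D4 to E4, measured 12.2, 3.40, 8.41 and 3.06 CPM in young mice and 16.2, 111 and 15.6 CPM in old mice. This log2 difference of 2.82 ± 0.78 (SE; edgeR adjusted p = 0.123) shrank to 1.23 without 3posI. Cyp4f18, which inactivates leukotriene B4, measured 53.1 to 129 CPM in young mice and 126, 362 and 86.5 CPM in old mice, and its log2 difference of 0.94 shrank to 0.09 without 3posI. Abcc1, an exporter of leukotriene C4, had its highest value in the same mouse (33.9 CPM, against 15.4 to 19.5 in the other 6). Hpgd, the dehydrogenase that inactivates prostaglandins, was low in 23C (58.7 CPM) and 3posI (38.6 CPM) and lay at 78.9 to 146 CPM elsewhere.

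Of 15 receptors, 12 were tested. By edgeR, 5 had an unadjusted p under 0.05, against 18.9% of all genes, and of these 2 were higher and 3 lower in old mice. Ptger4, described above with Ptgs2, differed by -1.02 ± 0.33 (SE) on the log2 scale (edgeR adjusted p = 0.158), and by -0.67 without 2posI. Ptgdr, a prostaglandin D2 receptor, had 13.5, 3.00, 1.57 and 6.21 counts in young mice and 0 in each old mouse, too few for a fold change. Cysltr1, a receptor of cysteinyl leukotrienes on the X chromosome, was left out of the test with the other sex-linked genes. It measured 34.6, 34.7, 19.4 and 35.1 CPM in young mice and 46.6, 38.6 and 33.9 CPM in old mice, and the ages overlapped.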

How the data were processed

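RNA of Bodipy+ microglia of 4 young and 3 old mice was measured. The authors checked reads with FastQC 0.11.5, ran skewer for trimming, aligned to GRCm38 using STAR, and had RSEM estimate gene levels from GENCODE m15. For STAR and RSEM a version was not given in the sources used here. As to extraction, the labels and the study's methods name different kits. The deposited expected counts are not normalized. The TPM values deposited by the authors are scaled within each library. Lengths and effective lengths per gene, also deposited by the authors, are in bases, and FPKM was not used.

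Expected counts were rounded. Genes with a count above 10 in at least 1 library and not on X, Y or the mitochondrial genome were tested (17559 of 50686, after 614 were removed) with edgeR 4.0.16 in R 4.3.3, using TMM factors, a quasi-likelihood test of age with no other term, and Benjamini-Hochberg adjustment at 0.05 over all genes. Log2 CPM used a prior count of 1. RSEM splits reads between genes, and the counts of Alox5ap, Ltc4s and Ptgs1 were not whole (tolerance 0.001) in any library. As alternatives, DESeq2 1.42.0 and limma-voom (limma 3.58.1, also with sample quality weights) replaced the test, upper-quartile or RLE factors replaced TMM, and further runs used other count filters, sex-linked and mitochondrial genes kept in, an effective-length offset, limma on log2(TPM + 0.1) and log2(TPM + 1), and each library left out in turn. p-values set the difference between ages against the spread among libraries of the same age, for these 7 libraries alone. For groups of 3 and 4, the smallest p of an exact permutation test is 0.0286. Fits were tested on simulated counts. Libraries held 36574083 to 53002386 expected counts.

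Members and gene lists were chosen with earlier results of these data known. The text names all members, in each wider list the 2 genes highest in TPM and the 2 with the smallest p, the 3 genes nearest in pattern to the 2 most variable members with at least 10 CPM, and the most counted marker of each list it describes, except the microglial one, which is not reported here. Exceptions chosen after their values were seen are said to be so, and Fn1 was the most counted of the monocyte, Ms4a7 of the border macrophage, Gp9 of the platelet and Hdc of the mast cell markers. Gene coordinates are from GENCODE vM21, which held 50462 of the 50686 identifiers. Marker lists of other cells were also summed per library, with 188 to 456 CPM for neutrophil, 11.7 to 66.6 for dendritic, 12.9 to 25.1 for lymphocyte, 57.7 to 154 for endothelial and 93.1 to 195 for neural genes. Their most counted genes were Csf3r, Batf3, Cd79b, Cldn5 and Slc1a3.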

Additional observations from a re-analysis of the deposited data

Results flagged for a closer look

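Values of the 4 young mice were examined for a mouse far from the others, in 38 sets of values for the members and the named genes of the wider pathway, of which chance alone would give 1.90 on average. The values of 2 genes, neither of them a member, had such a mouse, and it was 23C in both. Cotl1 measured 1807 CPM in 23C and 494 to 627 CPM in the other young mice, a gap of 0.899 of the range. Cysltr1 measured 19.4 CPM in 23C and 34.6 to 35.1 CPM in the other young mice, a gap of 0.971 of the range. Groups of 3, as the old mice are, were not examined in this way.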

How the results depend on the processing

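In every alternative run, 0 of the 10 members passed the threshold, and the smallest adjusted p of any member was 0.0566, for Alox5ap with DESeq2. The direction held in 176 of 180 refits of the members' log2 fold changes. Those that turned were Alox5, at -0.086 without 23C and -0.019 without 2posI or 4posI (range -0.086 to 0.28 over libraries left out), and Hpgds, at 0.11 without 3posI (range -0.23 to 0.11). Ages did not overlap in 4 members by TPM, and in 2 to 6 when each library was left out in turn. Calls over all genes numbered 141 (100 higher, 41 lower in old mice), and 318 (203 and 115) with quality weights, 1399 with DESeq2, 288 (157 and 131) with no filter, 71 (34 and 37) on log2(TPM + 0.1) and 64 (32 and 32) on log2(TPM + 1). Leaving out each library gave 1 to 159, with 1 without 14C, 18C or 2posI, 2 without 29C, 14 without 23C and 85 without 4posI. Of the wider pathway, DESeq2 called 6 genes, and gave no adjusted p for Dpep2 and Ptgdr. The cause of these changes was not tested. No paired analysis was possible because the ages share no animal. Depth limits Ptges and Ptgdr, whose counts were few.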
